A study of Homo sapiens with 24 samples.

Results

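The genes described here copy DNA in S phase and supply the nucleotides for it. They are the 46 rows of the deposited table, out of 25082, whose symbol is on a fixed list: 16 genes of replication origins and the replicative helicase, 19 genes of the polymerases and the fork, 4 genes of nucleotide supply, 4 genes of cyclin E and E2F, and 3 genes that rebuild chromatin behind the fork. All 46 had a level of at least 10 in at least 3 libraries and were among the 20154 genes tested. The cells are SET2, a human megakaryoblast-like cell line established from a patient with a myeloproliferative neoplasm, and the study compared lines that persist in type I JAK inhibitors with naive cells. There were 8 groups of 3 RNA-seq libraries: naive cells without inhibitor, naive cells given the vehicle DMSO for 4 h, naive cells given INC424 (ruxolitinib) for 4 h or for 48 h, and 4 lines grown continuously in BMS911543 (a JAK2-selective inhibitor), CYT387 (momelotinib), INC424 or SAR302503 (fedratinib). The labels give neither concentrations nor how many clones or selections a persistent line stands for, and the groups include no vehicle at 48 h.

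As background, origins are licensed in G1 when the origin recognition complex, CDC6 and CDT1 load the MCM2 to MCM7 ring on DNA. The ring becomes an active helicase when CDC45 and the GINS complex join it, and the polymerases, the sliding clamp PCNA and its loader RFC then copy both strands. E2F factors switch on most of these genes late in G1, cyclin E with its kinase drives the entry into S phase, and JAK2 signalling promotes that entry in blood cells that depend on it. Expression of these genes is therefore used as a marker of proliferating cells.

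The promoters of 6 genes are printed to show the element by which E2F factors act, since these genes include the factors E2F1 and E2F2 themselves and their values turn up in the comparisons that follow. The element was searched as TTT, CC, CG, GC or GG, and CGC (TTTCCCGC, TTTCGCGC, TTTGCCGC or TTTGGCGC) on both strands, in windows from 250 bases before to 50 bases after each RefSeq gene start on GRCh38.p14. Matches were counted where they overlapped each other. The stretches below end at or before the base ahead of the start, leave out annotated exons, read 5′ to 3′ along the gene, and carry each match in capitals (GCGCCAAA, GCGCGAAA, GCGGGAAA and GCGGCAAA are matches on the other strand, and in MCM6 each GCGCGAAA overlaps a TTTGGCGC).
MCM6: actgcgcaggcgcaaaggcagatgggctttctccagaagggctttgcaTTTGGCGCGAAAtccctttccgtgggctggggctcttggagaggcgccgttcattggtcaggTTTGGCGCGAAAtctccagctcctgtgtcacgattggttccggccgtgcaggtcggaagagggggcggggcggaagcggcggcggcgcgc
POLA1: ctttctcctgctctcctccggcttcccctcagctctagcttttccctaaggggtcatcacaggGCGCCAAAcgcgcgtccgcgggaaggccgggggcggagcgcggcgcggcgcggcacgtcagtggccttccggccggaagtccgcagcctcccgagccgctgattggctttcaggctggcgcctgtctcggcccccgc
PCNA: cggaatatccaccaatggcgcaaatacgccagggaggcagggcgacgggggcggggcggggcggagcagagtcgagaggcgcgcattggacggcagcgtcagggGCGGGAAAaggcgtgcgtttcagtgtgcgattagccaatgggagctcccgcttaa
E2F1: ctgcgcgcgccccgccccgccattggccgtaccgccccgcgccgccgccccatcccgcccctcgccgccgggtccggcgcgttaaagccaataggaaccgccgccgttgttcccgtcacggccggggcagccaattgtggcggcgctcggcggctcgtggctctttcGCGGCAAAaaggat
E2F2: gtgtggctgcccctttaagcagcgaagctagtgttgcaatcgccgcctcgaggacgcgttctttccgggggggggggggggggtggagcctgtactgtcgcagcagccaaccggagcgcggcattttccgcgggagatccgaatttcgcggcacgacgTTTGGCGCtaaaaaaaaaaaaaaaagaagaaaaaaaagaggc
UHRF1: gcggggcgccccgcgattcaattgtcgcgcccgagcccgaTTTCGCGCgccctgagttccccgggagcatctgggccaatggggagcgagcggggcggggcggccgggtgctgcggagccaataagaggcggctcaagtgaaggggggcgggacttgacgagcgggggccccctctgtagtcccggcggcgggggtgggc
MCM6, a subunit of the helicase ring, has 4 matches that overlap in pairs, starting at bases -152, -148, -90 and -86 from the gene start (chr2:135876444-135876643 on the minus strand). POLA1, the catalytic subunit of the polymerase that primes synthesis, has its match at base -137 (chrX:24693718-24693917 on the plus strand). The clamp gene PCNA has a match at base -59 (chr20:5126627-5126785 on the minus strand). E2F1 has a match at base -33 in the stretch shown (chr20:33686405-33686585 on the minus strand), E2F2 has one at base -42 (chr1:23531234-23531433 on the minus strand), and UHRF1, which guides DNA methylation to copied strands, has one at base -160 from another RefSeq start listed for it (chr19:4909944-4910143 on the plus strand).

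RefSeq windows were matched for 39 of the 46 genes; MCM4, MCM5, GINS4, POLD3, RPA2, RPA3 and CCNE2 were not matched. A match to the E2F element was present in 20 of the 39 genes (51.3%), against 3.99% of all 27305 gene symbols with a window. Those symbols were not matched to the 39 genes in base composition or expression. CCAAT or its complement ATTGG, which can share no more than 1 end base with the E2F element, was present in 23 of 39 (59.0%) against 39.7%. The 20 genes with an E2F match and the 19 without one had similar median changes: -0.83 and -0.92 on the log2 scale after 48 h of INC424 against DMSO, and 0.55 and 0.52 in the INC424 persistent line against naive cells. A match is a description of the letters and no evidence of binding.

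Levels are normalised read counts, and the reads counted on genes ranged from 21770721 to 36160750 per library. Changes are differences of mean log2(level + 1) between groups with the standard error from limma, and a gene is said to rise or fall where its Benjamini-Hochberg adjusted p over all 20154 genes tested was under 0.05. The median change over all genes lay between -0.05 and 0.05 in each comparison of groups. The labels do not say that replicates were separate cultures, so the p-values measure the spread between these libraries. RNA of the whole culture was measured, so a smaller share of cells in S phase and less RNA per cell cannot be told apart. In the cells 9 of the 10 listed megakaryoblast markers were in the table and took 0.285% to 0.668% of the reads; PF4 was at 0 in the naive, DMSO, INC424 4 h and SAR302503 groups. Library 2 of the CYT387 line stood apart: 9 listed markers of squamous epithelium took 0.416% of its reads against at most 0.0963% in any other library, and 9 markers of stroma and macrophages took 0.768%. In that library 29 of the 46 replication genes were lower and 16 higher than in both sister libraries, by -1.28 to 1.18 on the log2 scale relative to their mean. Counts of called genes in the CYT387 line are therefore given with and without it. Some values of single genes, and the ranks of group means, are given only with it. The next highest squamous shares were in library 3 of the SAR302503 line (0.0963%), library 2 of the INC424 line (0.0267%) and library 3 of INC424 at 48 h (0.0201%). With CYT387 library 2 these are the 4 libraries richest in epithelial RNA.

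Reads from overlapping genes could not be separated with certainty, because whether strand was used in counting is not given in the sources used here. In the GENCODE v29 annotation TYMS shares 39.1% of its exon bases with ENOSF1 on the other strand and CCNE2 shares 37.0% with INTS8 on the other strand. POLA2 shares 35.1% and RRM2 20.2% with unnamed models on their own strand, and PRIM1 shares 14.9% with such a model. Values for these 5 genes are uncertain by an amount not measured, since a share of exon bases is not a share of reads. In each other gene 8.94% or less of the exon bases are shared.

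After 4 h of INC424 few replication genes had moved. Against DMSO at 4 h, 5 of the 46 fell and none rose (8.37% of all genes tested passed, in either direction). The share called among the 46, 10.9%, was close to that over all genes. The median change of the 46 was -0.11 against -0.01 over all genes. The 5 were RRM2, the regulated subunit of ribonucleotide reductase, CCNE1, which encodes cyclin E1, FEN1, the nuclease that trims Okazaki fragments, and the origin-firing genes GINS4 and MCM10. RRM2 read 4606, 4424 and 4209 with DMSO and 2413, 2470 and 2517 with INC424, so that its groups did not overlap, a change of -0.84 ± 0.15 (SE, adjusted p = 5.98e-04). CCNE1 read 555, 674 and 667 with DMSO and 319, 364 and 389.8 with INC424, again without overlap, a change of -0.82 ± 0.19 (SE, adjusted p = 0.00706). FEN1, GINS4 and MCM10 changed by -0.53, -0.47 and -0.42. Against naive cells none of the 5 fell and MCM10 rose, as given below. CCNE2, for cyclin E2, went from 466, 519 and 402 to 245, 285 and 293 and did not pass, with a difference of -0.75 ± 0.26 (SE, adjusted p = 0.0859). No subunit of the MCM ring was called at 4 h: MCM2 to MCM7 differed by -0.19 to 0.21. Leaving out any DMSO library, or library 1 or 2 of INC424 at 4 h, left 3 genes called. Leaving out CYT387 library 2, which enters only through the shared spread and the set of genes tested, raised the count to 10. Without the 4 libraries richest in epithelial RNA it was 11, with 10 lower and 1 higher, beside 4259 of all 19521 genes tested.

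After 48 h of INC424 the replication genes had fallen almost throughout. Of the 46, 41 were lower than in DMSO at 4 h and none was higher, against 33.9% of all genes tested that passed in either direction. Their median change was -0.85, while the median over all genes was 0.00. The 48 h group had the lowest mean of the 8 groups for 42 of the 46 genes, as it did for 14.6% of all genes tested, and all 3 of its libraries lay below every one of the other 21 libraries for 26 of the 46, against 3.62% of all genes tested. The control here was taken at 4 h, so the drug and the longer culture cannot be told apart in this comparison. The heat map of group means shows the 48 h column as blue or near white in nearly every row.

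**Figure D1:**
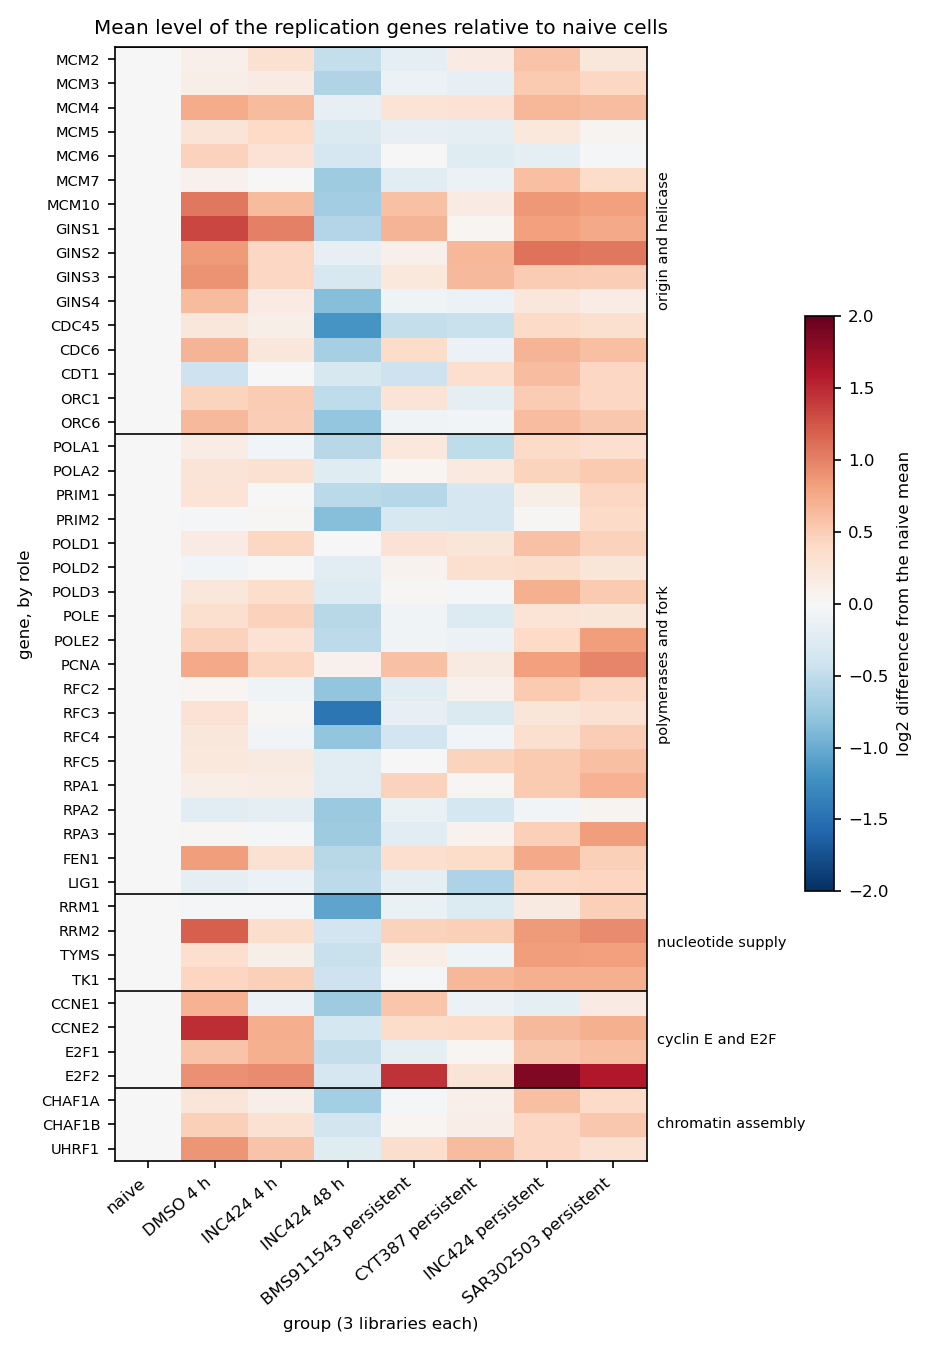
Mean level of the 46 genes (rows, by role) in the 8 groups of 3 libraries (columns), as the log2 difference from the naive mean, with red higher and blue lower than naive. The INC424 48 h column holds the lowest mean for 42 of the 46 genes, and the INC424 and SAR302503 persistent columns hold the highest for 15 genes each.

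Among the 16 origin and helicase genes, 14 fell, with a median change of -0.98. The largest falls were in genes that turn the loaded ring into a working helicase. GINS1, a subunit of the GINS complex, read 1044, 991 and 889.6 with DMSO and 256, 267 and 241 at 48 h, a change of -1.93 ± 0.17 (SE, adjusted p = 1.78e-08). MCM10, which is needed to start unwinding, read 2795, 2679 and 2617 and 832, 820.1 and 747, a change of -1.75 ± 0.12 (SE, adjusted p = 3.44e-10). GINS4 read 1393, 1415 and 1355 and 564, 411 and 525, a change of -1.48 ± 0.13 (SE, adjusted p = 2.46e-08). In each of these 3 genes every 48 h library was below all other libraries of the study. ORC6 (-1.42), CDC45 (-1.40), CDC6 (-1.34), GINS3 (-1.22), GINS2 (-1.01) and ORC1 (-0.94) fell as well. The ring subunits fell less: MCM4 by 0.91, MCM6 by 0.80, MCM7 by 0.79, MCM3 by 0.72 and MCM2 by 0.57. MCM6 read 8705, 8643 and 7955 with DMSO and 4860, 4880 and 4771 at 48 h, with no overlap.

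MCM5 and CDT1 were the origin genes that did not pass. MCM5 read 12015, 13694 and 15924 with DMSO and 9639, 8763 and 9952 at 48 h, without overlap but with a wide spread in DMSO, for a difference of -0.55 ± 0.21 (SE, adjusted p = 0.0511). CDT1, the loader of the ring, read 1154, 1520 and 1802 with DMSO and 1547, 1492 and 1644 at 48 h, which overlap, for a difference of 0.09 ± 0.20 (SE, adjusted p = 0.785) and an interval of -0.33 to 0.50 (95%).

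Of the 19 polymerase and fork genes, 16 fell, with a median change of -0.71. RFC3, a subunit of the clamp loader, read 2007, 1931 and 1715 with DMSO and 611, 576 and 508 at 48 h, a change of -1.74 ± 0.14 (SE, adjusted p = 5.38e-09). Its 48 h libraries lay below every other library of the study. The other loader subunits RFC4, RFC2 and RFC5 fell by 1.02, 0.82 and 0.41. FEN1 read 4088, 3969 and 4129 and 1709, 1432 and 1541, a change of -1.38 ± 0.10 (SE, adjusted p = 1.65e-09). POLE2 and POLE of the leading-strand polymerase fell by 0.98 and 0.86, and PRIM1, PRIM2, POLA1 and POLA2 of the primase-polymerase fell by 0.81, 0.81, 0.71 and 0.49. POLA1 read 1781, 1788 and 1464 with DMSO and 1005, 1064 and 999 at 48 h, with no overlap. PCNA read 4651, 4371 and 4601 and 2785, 2852 and 2944, a change of -0.67 ± 0.14 (SE, adjusted p = 6.83e-04). The replication protein A genes RPA3, RPA2 and RPA1 fell by 0.73, 0.53 and 0.37.

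The 3 that did not pass were POLD1 and POLD2, subunits of the lagging-strand polymerase delta, and LIG1, the ligase that seals Okazaki fragments. POLD1 read 3854, 4716 and 5694 with DMSO and 4093, 4150 and 4470 at 48 h, which overlap, for a difference of -0.15 ± 0.22 (SE, adjusted p = 0.648). POLD2 and LIG1 differed by -0.18 ± 0.13 (SE, adjusted p = 0.315) and -0.32 ± 0.18 (SE, adjusted p = 0.195). POLD3, another subunit of the same polymerase, did fall, by 0.49 (adjusted p = 0.014, limma).

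All 4 nucleotide supply genes fell. RRM2 read 1509, 1556 and 1375 at 48 h, below the DMSO values given above, a change of -1.58 ± 0.15 (SE, adjusted p = 3.63e-08). RRM1, its partner in ribonucleotide reductase, read 4949, 4806 and 4600 with DMSO and 2278, 2327 and 2428 at 48 h, a change of -1.03 ± 0.15 (SE, adjusted p = 1.38e-05). Thymidine kinase TK1 and thymidylate synthase TYMS fell by 0.85 and 0.79. The groups of RRM1, RRM2 and TK1 at 48 h lay below every other library.

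The 4 cyclin E and E2F genes also fell, with the largest median of the 5 roles (-1.32). CCNE2 read 123, 151 and 114 at 48 h, a change of -1.83 ± 0.26 (SE, adjusted p = 1.20e-05). CCNE1 read 246, 227 and 235, a change of -1.41 ± 0.19 (SE, adjusted p = 4.46e-06). E2F2 read 1504, 1557 and 1626 with DMSO and 694, 658 and 637 at 48 h, a change of -1.24 ± 0.12 (SE, adjusted p = 6.47e-08). E2F1 read 1946, 2118 and 2308 and 1041, 997 and 1012, a change of -1.06 ± 0.15 (SE, adjusted p = 1.21e-05). The groups did not overlap for any of these 4 genes. Of the chromatin genes, UHRF1 read 1232, 1451 and 1629 with DMSO and 652, 601 and 727 at 48 h, a change of -1.12 ± 0.21 (SE, adjusted p = 2.69e-04), and CHAF1A and CHAF1B of chromatin assembly factor 1 fell by 0.92 and 0.84.

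Measured directly between the exposures, 37 of the 46 genes were lower at 48 h than at 4 h of INC424 and none was higher (14.7% of all genes tested passed), with a median of -0.74. The largest differences were in GINS1 (-1.60), RFC3 (-1.48), MCM10 (-1.33), CDC45 (-1.30) and E2F2 (-1.28). E2F2 illustrates the timing: it read 1538, 1737 and 1563 at 4 h, which differed from DMSO by 0.04 ± 0.12 (SE, adjusted p = 0.893), and from 4 h to 48 h it changed by -1.28 ± 0.12 (SE, adjusted p = 3.12e-07). E2F1 had the same order, with 2271, 2418 and 2258 at 4 h, a difference from DMSO of 0.13, and a fall of 1.19 from 4 h to 48 h. RRM2, by contrast, changed by -0.84 by 4 h and by a further -0.74 up to 48 h. Genes without a call between 4 h and 48 h were GINS2, CDT1, POLD1, POLD2, PCNA, RFC5, RPA1, LIG1 and TYMS.

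The naive and DMSO groups differed from each other, so the fall at 48 h was also measured against naive cells. With DMSO at 4 h, 20 of the 46 genes were higher than in naive cells and none was lower (26.0% of all genes tested passed), with a median of 0.30. CCNE2 read 171, 137 and 191 in naive cells, below all its DMSO values, a difference of 1.48 ± 0.26 (SE, adjusted p = 2.28e-04). GINS1 read 318, 428 and 418 in naive cells, a difference of 1.34 ± 0.17 (SE, adjusted p = 4.73e-06). RRM2 read 2150, 1824 and 1832, a difference of 1.19 ± 0.15 (SE, adjusted p = 2.96e-06). All 4 cyclin E and E2F genes and 10 of the 16 origin and helicase genes were among the 20. The labels do not say how else the DMSO and naive cultures differed. INC424 at 4 h, set against naive cells, gave 9 genes higher and none lower (11.8%), or 19 without CYT387 library 2, which belongs to neither group. Library 2 enters such comparisons only through the shared spread and the set of genes tested. The 5 genes that fell against DMSO at 4 h were all among the 20 above. Of them, MCM10 was higher at 4 h of INC424 than in naive cells, by 0.64. RRM2, FEN1, GINS4 and CCNE1 differed from naive cells by 0.35, 0.30, 0.16 and -0.12 without passing.

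Set against naive cells, the 48 h group still had 26 of the 46 genes lower and none higher (20.0% of all genes tested passed), with a median of -0.51. RFC3 read 1650, 1441 and 1524 in naive cells, all above the 48 h values, a difference of -1.45 ± 0.14 (SE, adjusted p = 1.41e-07). CDC45, which joins the helicase at firing, read 2127, 2408 and 2510 in naive cells and 1004, 1070 and 1032 at 48 h, a difference of -1.18 ± 0.19 (SE, adjusted p = 9.70e-05). RRM1 read 6047, 4276 and 4491 in naive cells, a difference of -1.06 ± 0.15 (SE, adjusted p = 2.33e-05). PCNA, in contrast, read 3381, 2513 and 2263 in naive cells and overlapped with 48 h, with a difference of 0.09 ± 0.14 (SE, adjusted p = 0.689); RRM2, E2F2 and CCNE2 differed by -0.38, -0.33 and -0.36 without passing. The plot of medians by library shows the gap between the controls beside the fall.

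**Figure D2:**
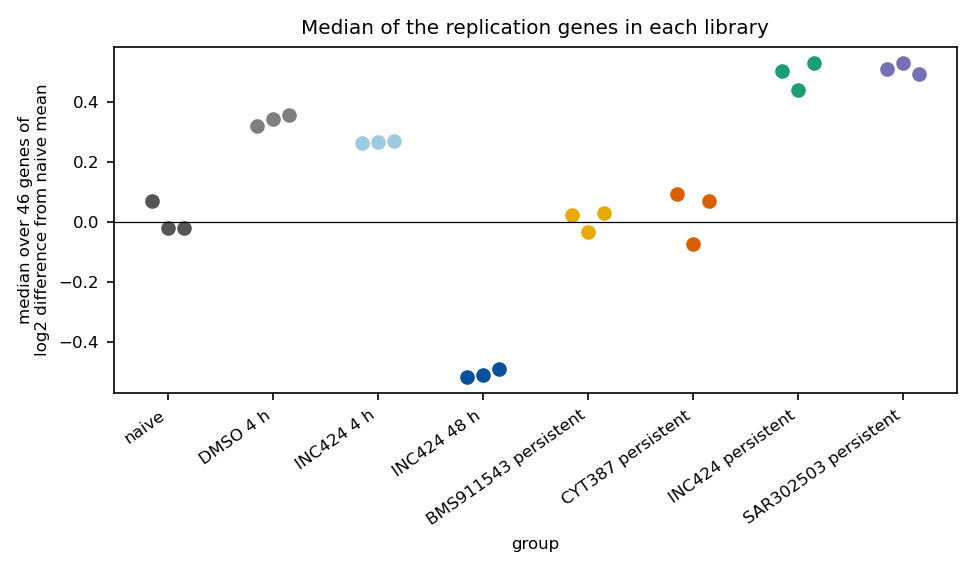
Median over the 46 genes of the log2 difference from the naive mean, 1 point per library. The INC424 48 h libraries lie at -0.52 to -0.49, the DMSO libraries at 0.32 to 0.36, and the INC424 and SAR302503 persistent libraries at 0.44 to 0.53.

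The 4 persistent lines, all grown in inhibitor, divided in their replication genes. Against naive cells the INC424 line had 27 of the 46 genes higher and none lower (22.5% of all genes tested passed) with a median of 0.52. The SAR302503 line had 26 higher and none lower (19.3%) with a median of 0.48. The BMS911543 line had 8 higher and 2 lower (24.6%) with a median of 0.00, and the CYT387 line had 7 higher and 3 lower (22.3%) with a median of 0.03. In the BMS911543 and CYT387 lines the share called among the 46 genes, 21.7% in each, was close to that over all genes. The 4 comparisons share the naive libraries, so each gives its own values only.

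In the INC424 line 11 of 16 origin and helicase genes, 10 of 19 polymerase and fork genes and 3 of 4 nucleotide supply genes were higher than in naive cells. E2F2 had the largest change of the 46: it read 865, 830.3 and 802 in naive cells and 3259, 2844 and 2919 in the INC424 line, a change of 1.85 ± 0.12 (SE, adjusted p = 7.46e-11). GINS2 read 518, 547 and 403 and 959, 1052 and 1097, a change of 1.09 ± 0.23 (SE, adjusted p = 0.00102). MCM10 read 1422, 1318 and 1162 and 2256, 2425 and 2381, a change of 0.86 ± 0.12 (SE, adjusted p = 6.87e-06). The groups of these genes did not overlap. Among fork genes, PCNA read 4436, 4292 and 5515 in the INC424 line, above all its naive values, a change of 0.82 ± 0.14 (SE, adjusted p = 1.16e-04). FEN1 and POLD3 rose by 0.76 and 0.71. RRM2 read 3522, 3502 and 3445, a change of 0.85 ± 0.15 (SE, adjusted p = 1.23e-04), and TYMS read 9715, 8215 and 7638 in naive cells and 16127, 14958 and 14500 in the line, a change of 0.84 ± 0.21 (SE, adjusted p = 0.00491). MCM7 and MCM4 rose by 0.60 and 0.67, and E2F1 and CHAF1A by 0.56 and 0.60.

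Of the 46 genes, 19 did not pass in the INC424 line, and 3 of these, MCM6, CCNE1 and RPA2, had a difference below 0. MCM6 read 6942, 5833 and 5594 in naive cells and 4983, 5687 and 5352 in the line, a difference of -0.19 ± 0.15 (SE, adjusted p = 0.395). CCNE1 read 386, 386 and 391 and 312, 304 and 403, a difference of -0.20 ± 0.19 (SE, adjusted p = 0.491). RPA2, a subunit of the complex that covers single-stranded DNA, read 5170, 4212 and 4623 and 4416, 4601 and 4358, a difference of -0.06 ± 0.12 (SE, adjusted p = 0.766). The primase genes PRIM2 and PRIM1 differed by 0.02 and 0.12. Of the ring subunits, MCM2, MCM3, MCM4 and MCM7 passed and MCM5 and MCM6 did not; the 6 subunits differed by -0.19 (MCM6) to 0.67 (MCM4) in this line.

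In the SAR302503 line 8 of 16 origin and helicase genes, 10 of 19 polymerase and fork genes and all 4 nucleotide supply genes were higher than in naive cells. E2F2 read 2429, 2367 and 2844, a change of 1.61 ± 0.12 (SE, adjusted p = 1.44e-09). GINS2 read 918, 844 and 1304, a change of 1.05 ± 0.23 (SE, adjusted p = 0.00205). PCNA read 4805, 5403 and 5597, a change of 0.97 ± 0.14 (SE, adjusted p = 2.13e-05). Each of these groups lay above the naive one. POLE2 read 489, 398 and 429 in naive cells and 753, 899.7 and 702 in the line, a change of 0.84 ± 0.14 (SE, adjusted p = 1.28e-04), and RPA3 read 647, 452 and 575 and 1156, 1112 and 746, a change of 0.84 ± 0.16 (SE, adjusted p = 6.54e-04). RRM2 read 3913, 4182 and 3110, a change of 0.94 ± 0.15 (SE, adjusted p = 5.91e-05). TYMS, TK1 and RRM1 rose by 0.83, 0.71 and 0.48. Library 3, which carried more squamous marker RNA, was below both sister libraries for POLE2, RPA3 and RRM2 and above both for E2F2, GINS2 and PCNA. The part of that RNA in these values was not tested. MCM5 and MCM6 differed by 0.06 and -0.03 and RPA2 by 0.06, none passing. Without CYT387 library 2, which bears on these lines only through the shared spread and the set of genes tested, 35 genes passed in the INC424 line and 33 in the SAR302503 line. When the SAR302503 and naive libraries were fitted alone, 14 genes passed, all of them higher in the line.

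In the BMS911543 line the 10 called genes did not share a direction. E2F2 read 2506, 2082 and 2220 against 865, 830.3 and 802 in naive cells, a change of 1.44 ± 0.12 (SE, adjusted p = 4.55e-09). GINS1 and MCM10 rose by 0.68 and 0.58, PCNA, RPA1 and FEN1 by 0.59, 0.46 and 0.34, and RRM2 by 0.45. CCNE1 read 562, 529 and 629, above all naive values, a change of 0.56 ± 0.19 (SE, adjusted p = 0.0311). PRIM1, the catalytic primase subunit, fell: it read 1067, 881 and 839 in naive cells and 573, 618 and 678 in the line, a change of -0.57 ± 0.16 (SE, adjusted p = 0.00913). RFC4 fell by 0.38. CDC45 and CDT1 were among the lowest of the others, with differences of -0.48 and -0.41 that did not pass. Without the 4 libraries richest in epithelial RNA, none of which belongs to these groups, 11 genes were higher and 5 lower. In that fit 8015 of all 19521 genes tested passed.

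In the CYT387 line the number of calls depended on its library 2. With all 3 libraries MCM4, GINS2, GINS3, RFC5, FEN1, RRM2 and UHRF1 were higher than in naive cells and POLA1, RPA2 and LIG1 lower. GINS2 read 549, 1311 and 631, GINS3 read 652, 1201 and 581 and UHRF1 read 960.3, 1796 and 1022, in each case with library 2 far above the others. UHRF1 in naive cells read 620.0, 871 and 862, and its change was 0.64 ± 0.21 (SE, adjusted p = 0.0332), or 0.35 without library 2, which did not pass. LIG1 read 7849, 3772 and 7219 against 8028, 8956 and 10798 in naive cells, and POLA1 read 1249, 767 and 1242 against 1834, 1340 and 1373, with library 2 the lowest of each. Without library 2 MCM4 and FEN1 still passed, while GINS2, GINS3, RFC5, RRM2, POLA1, RPA2 and LIG1 went to 0.28, 0.33, 0.19, 0.25, -0.27, -0.25 and -0.29 and did not. In all, the line then had 5 genes higher, which were MCM4, FEN1, TYMS, E2F2 and CHAF1B, and none lower, and the median of the 46 was 0.12. Leaving out naive library 1, 2 or 3 left 4, 6 or 3 genes called. With the CYT387 and naive libraries fitted alone limma called 0 of the 46 genes, with 2 at an unadjusted p under 0.05. That fit called 522 of all 20154 genes tested. Over all groups edgeR called 10 of the 46 and DESeq2 12. MCM6 read 6259, 3737 and 5850 in this line, TYMS 10465, 4396 and 10940 and TK1 3379, 6620 and 3136, where library 2 was the lowest for MCM6 and TYMS and the highest for TK1. The TYMS difference from naive cells was -0.09 with library 2 and 0.34 without it.

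**Figure D3:**
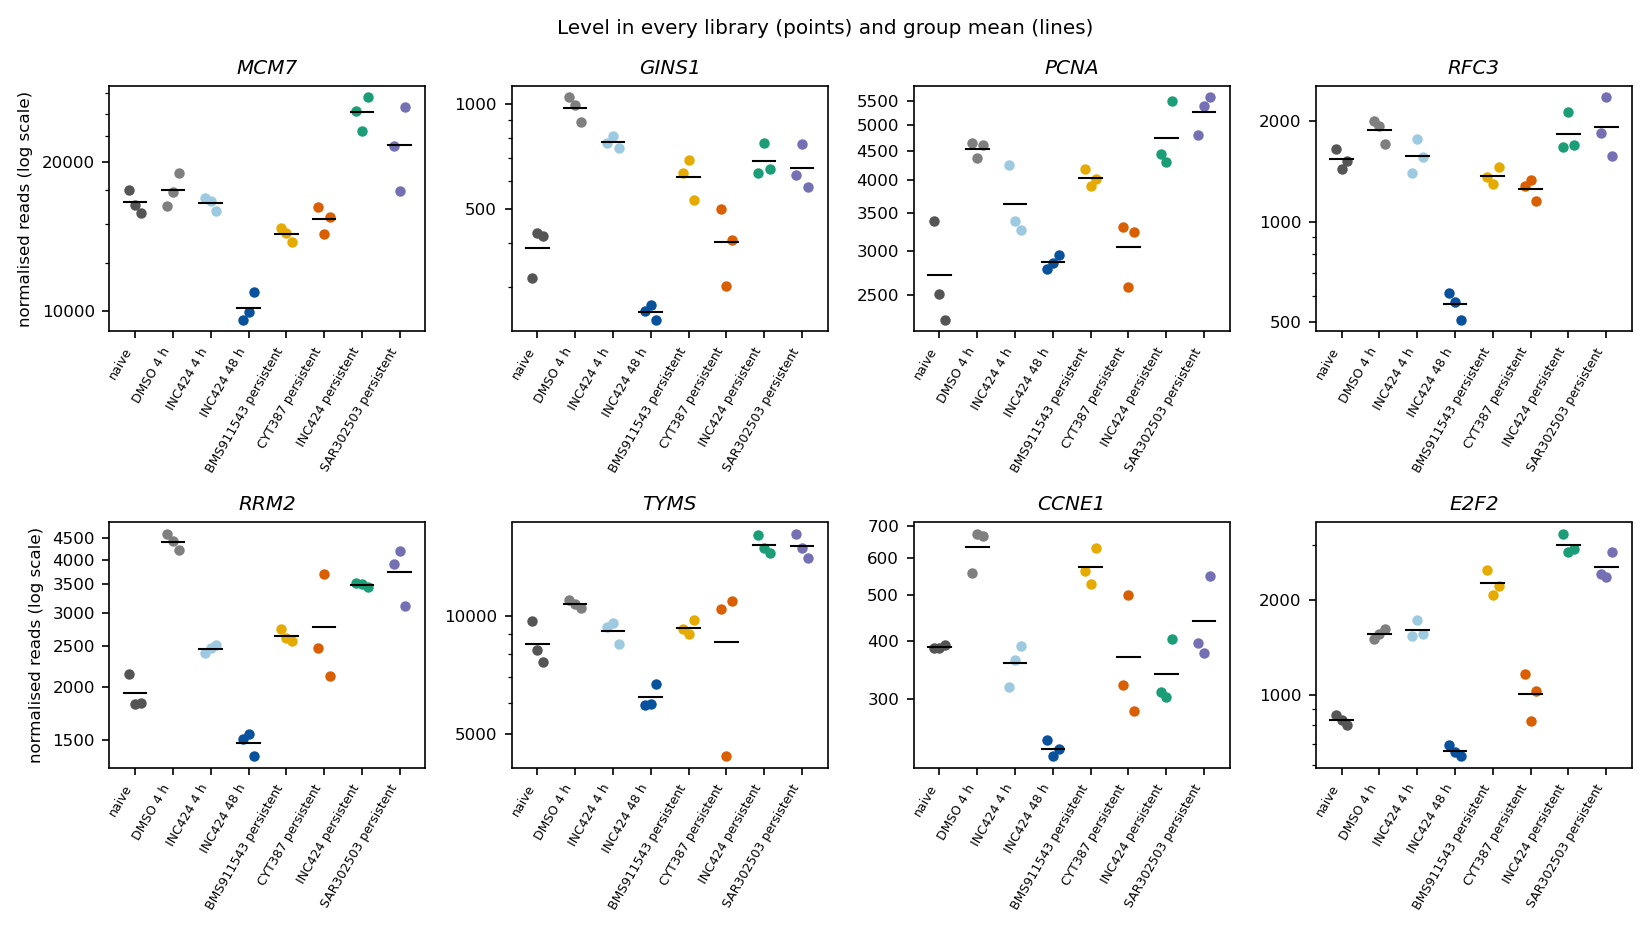
Level of 8 genes in every library (points, normalised reads on a log axis) with the mean of each group of 3 (lines). The 48 h libraries are the lowest of all for MCM7, GINS1, RFC3, RRM2, CCNE1 and E2F2, and library 2 of the CYT387 line stands apart from its sisters for TYMS, RRM2 and CCNE1.

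Because 20 of the 46 genes were already higher with DMSO than in naive cells, the lines were also set against DMSO at 4 h. This comparison was added after the data had been seen. The INC424 line then had 11 of the 46 genes higher and 5 lower (30.9% of all genes tested passed). The SAR302503 line had 9 higher and 7 lower (32.2%). In each of these lines the share called among the 46 genes, 34.8%, was close to that over all genes. The BMS911543 line had 1 higher and 17 lower (21.8%) and the CYT387 line 2 higher and 22 lower (36.3%). E2F2 in the INC424 line was higher by 0.94 ± 0.12 (SE, adjusted p = 2.53e-06) and in the SAR302503 line by 0.70 (adjusted p = 1.04e-04, limma). E2F2 was also the 1 gene higher in the BMS911543 line, and CDT1 was among those higher in the CYT387 line with all 3 libraries. CDT1 was higher in the INC424 and SAR302503 lines by 1.02 and 0.82, after reading 2042, 1889 and 1916 in naive cells, 3123, 2427 and 3501 in the INC424 line and 2339, 1905 and 3922 in the SAR302503 line. RPA1 and RPA3 were higher than DMSO in the INC424 line by 0.39 and 0.46 and in the SAR302503 line by 0.57 and 0.82.

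Some members were below their DMSO level in a persistent line. In the INC424 line CCNE1 differed by -0.90 ± 0.19 (SE, adjusted p = 7.44e-04) and CCNE2 by -0.83, MCM6 by -0.66 and GINS1 by -0.51. CCNE2 read 253, 339 and 200.5 in the INC424 line, 242, 332 and 243 in the SAR302503 line, 202, 199 and 243 in the BMS911543 line and 159, 371 and 169 in the CYT387 line, all below the DMSO values. GINS1 in the CYT387 line, at 501, 301 and 407, differed from DMSO by -1.30 ± 0.17 (SE, adjusted p = 4.81e-06). Leaving out DMSO library 1 or 2 or INC424 line library 1 or 3 left 8 or 9 genes called in the INC424 line, leaving out CYT387 library 2 gave 26 in the SAR302503 line, and without that library the CYT387 line had 1 higher and 25 lower. The median of the 46 genes in the INC424 line was 0.52 above naive cells and 0.08 above DMSO, and in the SAR302503 line 0.48 and 0.17, as the plot of both controls shows.

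**Figure D4:**
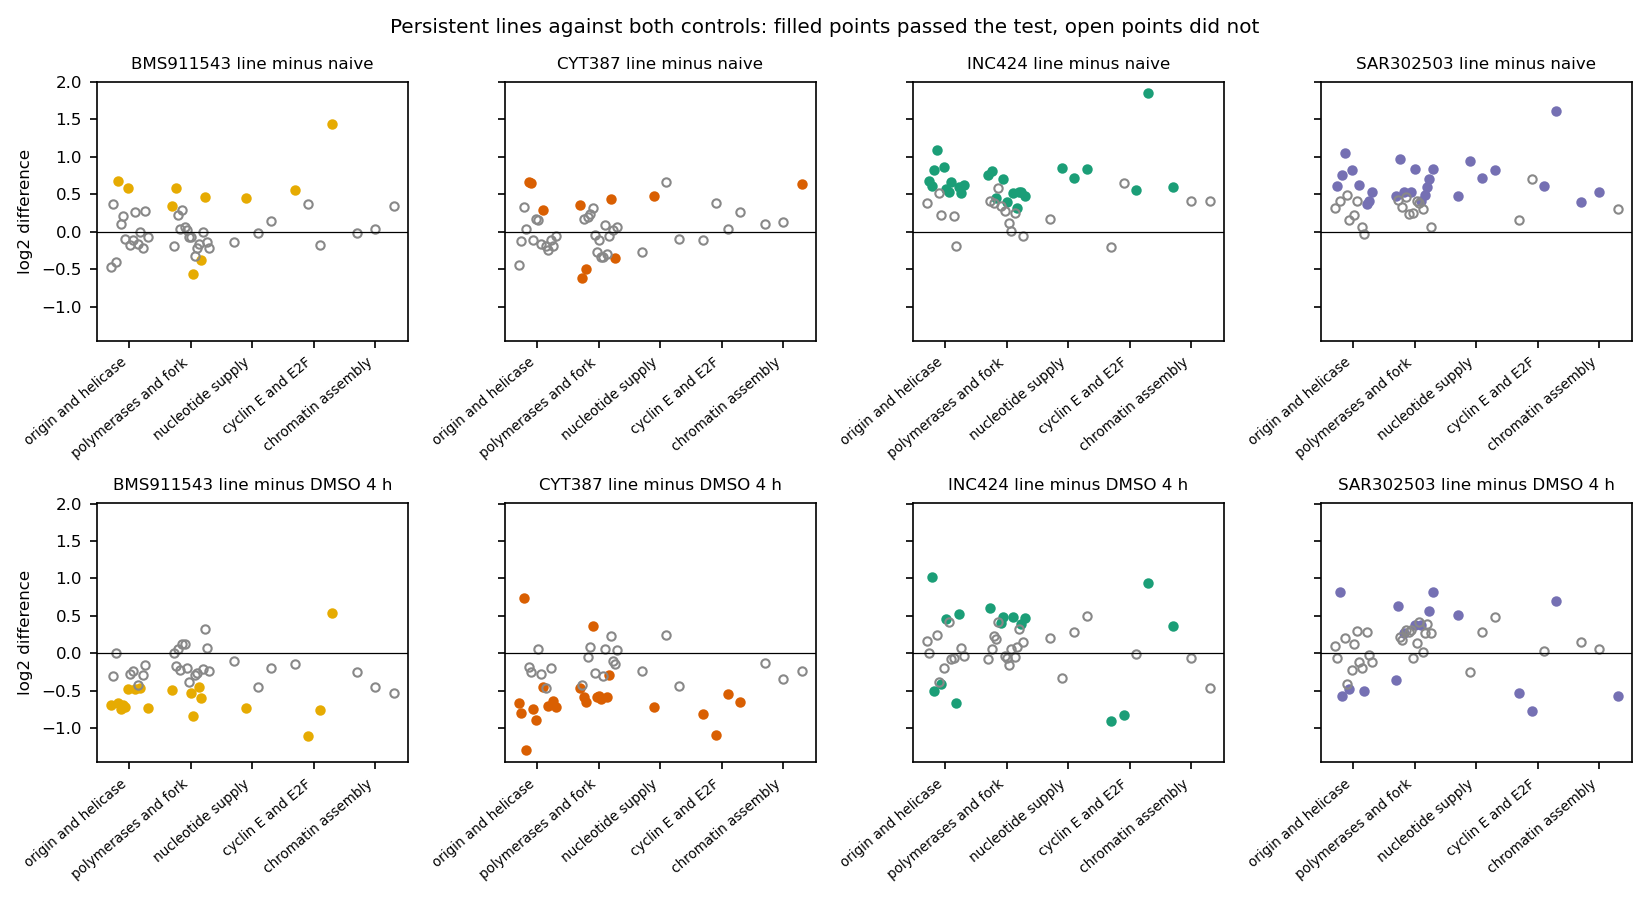
Log2 difference of each of the 46 genes between a persistent line and naive cells (top) or DMSO at 4 h (bottom), by role; filled points passed the limma test and open points did not. In the INC424 and SAR302503 lines 27 and 26 genes passed against naive cells, all upward, while against DMSO the calls lay on both sides of 0.

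The lines were then compared with each other. A moderated F test over the 4 lines found a difference for 38 of the 46 genes, against 47.1% of all genes tested; MCM5, MCM6, GINS3, GINS4, POLD1, POLD2, CCNE2 and UHRF1 did not pass. Without CYT387 library 2 the count was 37. Of the 6 pairs, the BMS911543 line was below the INC424 line for 24 genes and above it for 1 (16.5%), and below the SAR302503 line for 27 and above it for none (25.5%). The CYT387 line was below the INC424 line for 27 and above it for none (24.4%), and below the SAR302503 line for 29 and above it for none (26.3%). Without CYT387 library 2 those counts were 28 and 31, and with each pair of groups fitted alone they were 6 and 1. The pairs fitted alone had 1216 and 534 calls over all 20154 genes tested.

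MCM7 shows how the lines lay. It read 17545, 16357 and 15774 in naive cells, 14725, 14335 and 13788 in the BMS911543 line, 16185, 14315 and 15443 in the CYT387 line, 25353, 23102 and 26986 in the INC424 line and 21543, 17476 and 25804 in the SAR302503 line. The BMS911543 and INC424 lines differed by -0.81 ± 0.12 (SE, adjusted p = 3.83e-05) and the CYT387 and INC424 lines by -0.71 ± 0.12 (SE, adjusted p = 1.07e-04), while library 2 of the SAR302503 line lay within the naive range. CDT1 and GINS2 in the BMS911543 line were below the INC424 line by 1.02 and 0.98. PRIM1 in the BMS911543 line was 0.98 below the SAR302503 line, and TYMS in the BMS911543 line 0.69 below it. TYMS read 9258, 8998 and 9786 in the BMS911543 line and 16232, 14880 and 14052 in the SAR302503 line, with no overlap. CCNE1 was the gene that ran the other way: the BMS911543 line exceeded the INC424 line by 0.76 ± 0.19 (SE, adjusted p = 0.00623). Leaving out BMS911543 library 2 reduced the count against the SAR302503 line from 27 to 16.

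Between the BMS911543 and CYT387 lines 9 genes were higher and 6 lower in the BMS911543 line (31.4% of all genes tested passed). E2F2 was higher by 1.18 ± 0.12 (SE, adjusted p = 1.34e-07), with 2506, 2082 and 2220 in the BMS911543 line and 1166, 827 and 1027 in the CYT387 line. POLA1, CCNE1 and GINS1 were higher by 0.72, 0.68 and 0.64, and CDT1 and TK1 were lower by 0.74 and 0.69. Without CYT387 library 2 the differences were 1.05 for E2F2, 0.48 for POLA1, 0.92 for CCNE1, 0.45 for GINS1 and -0.70 for CDT1, each past the threshold, and -0.35 for TK1, which was not. Without that library there were 7 higher and 6 lower, and without BMS911543 library 2 or 3 there were 9 or 8 in all. With the pair fitted alone there were 2, beside 1970 of all 20154 genes tested. In the fit of all libraries the share of the 46 genes called, 32.6%, was close to that over all genes. The INC424 and SAR302503 lines differed in 1 gene, POLE2 (12.7% of all genes tested passed). POLE2 read 606, 609 and 517 in the INC424 line and 753, 899.7 and 702 in the SAR302503 line, a difference of -0.44 ± 0.14 (SE, adjusted p = 0.0381). For the other 45 genes the difference did not pass; that of E2F2 was 0.24 with a 95% interval of -0.00371 to 0.49, and that of MCM7 was 0.23 with an interval of -0.01 to 0.48. Leaving out SAR302503 library 3 gave 6 genes and leaving out CYT387 library 2 gave 3, while leaving out any of the other 5 libraries of the pair gave 0. Without the 4 libraries richest in epithelial RNA, of which library 2 of the INC424 line and library 3 of the SAR302503 line belong to this pair, 10 genes were higher and 7 lower in the INC424 line. In that fit 6820 of all 19521 genes tested passed.

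INC424 was used for 48 h in naive cells and continuously in the INC424 line. The INC424 line was above naive cells at 48 h of INC424 for 43 of the 46 genes and below for none (29.9% of all genes tested passed), with a median of 1.01. The 3 without a call were MCM5, MCM6 and POLD1, with differences of 0.49, 0.14 and 0.57. E2F2 had the largest difference, 2.18 ± 0.12 (SE, adjusted p = 5.57e-12), followed by RFC3 (1.69), MCM10 (1.56) and CDC45 (1.56). RFC3 read 1673, 2139 and 1694 in the INC424 line and CDC45 read 3087, 2922 and 3150, each above all 48 h values. Of the nucleotide supply genes TYMS, RRM2, RRM1 and TK1 were higher by 1.29, 1.24, 1.23 and 1.13, and of the chromatin genes CHAF1A by 1.29. The labels do not say whether line and acute cultures met the same concentration.

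Over the 8 groups the highest mean of a replication gene was never in naive cells, at 48 h of INC424, or in the BMS911543 or CYT387 lines. It was in the INC424 line for 15 genes (9.28% of all genes tested have their highest mean there), in the SAR302503 line for 15 (12.1%), with DMSO for 12 (15.6%) and at 4 h of INC424 for 4 (6.13%). The INC424 line led for helicase genes such as MCM2, MCM3, MCM7 and CDC45 and for TYMS and E2F2. The SAR302503 line led for PCNA, RFC3, RFC4, RFC5, RPA1, RPA2, RPA3 and both primase subunits, and DMSO led for GINS1, GINS3, GINS4, RRM2, CCNE1 and CCNE2. Neighbouring groups in this order often did not differ beyond their spread, as the INC424 and SAR302503 lines show in the fit of all 24 libraries.

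Further genes of the same pathways, on lists that do not include the 46, were counted for comparison. After 48 h against DMSO, where 33.9% of all genes tested passed, 14 of 15 other licensing and origin genes fell and none rose, with the largest changes in MCM8 (-1.22) and DBF4 (-1.19), the activator of the kinase that fires origins. Of 18 other fork genes 12 fell and 1 rose; CLSPN, an adaptor of the replication checkpoint, changed by -1.99 ± 0.22 (SE, adjusted p = 3.91e-07), and DSCC1 and TIPIN by -1.88 and -1.87. Of 14 other nucleotide-pool genes 3 fell and 3 rose: NME1 fell by 1.31, and the mitochondrial thymidine kinase TK2 rose by 1.26; the share called on that list was near the one over all genes. Of 14 purine synthesis genes 8 fell and 1 rose, led by PPAT, the first committed enzyme (-1.18), and of 6 pyrimidine synthesis genes 4 fell and 1 rose, led by CTPS1 (-1.65) and UMPS (-1.15). Of 15 other E2F and RB pathway genes 9 fell and 2 rose, with CDC25A, E2F7 and RBL1 changing by -1.82, -1.38 and -1.34. The median changes of these 6 lists, in the order given, were -0.87, -0.69, -0.19, -0.53, -0.51 and -0.61.

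Against naive cells in the INC424 and SAR302503 lines, 6 and 8 of the 15 licensing genes, 7 and 6 of the 18 fork genes, and 8 and 5 of the 14 nucleotide-pool genes were higher, beside 22.5% and 19.3% of all genes tested that passed in either direction. DCK, a deoxycytidine kinase named after its value was seen, was lower than in naive cells in the INC424 line (-0.51). It was also lower than in naive cells in the BMS911543 line (-1.02), with DMSO (-1.22) and at 4 h of INC424 (-0.55). Its mean was 2881 in the INC424 line and 1752 with DMSO. Of the 14 purine synthesis genes 1 and 2 were higher and of the 6 pyrimidine synthesis genes 1 and 1, with none lower; the pyrimidine gene was CTPS1 in each (1.05 and 0.53). E2F7, a repressor of the E2F family, read 18.8, 24.8 and 13.2 in naive cells, 44.7, 65.4 and 80.3 in the BMS911543 line, 152, 388 and 95.6 in the CYT387 line, 458, 607 and 465 in the INC424 line and 395, 431 and 334 in the SAR302503 line. Its change against naive cells was 4.71 ± 0.39 (SE, adjusted p = 4.51e-09) in the INC424 line and 4.31, 3.21 and 1.70 in the SAR302503, CYT387 and BMS911543 lines. Without CYT387 library 2, the highest of its group, the E2F7 difference of that line was 2.65. It stood at 160.4, 90.4 and 123 with DMSO, which differed from naive cells by 2.66. CLSPN in the INC424 line rose by 1.13 and NT5C, a nucleotidase, by 1.17. With DMSO, CLSPN, NT5C and CTPS1 differed from naive cells by 1.06, 0.35 and 1.22, NT5C without passing.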

How the data were processed

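RNA of SET2 cells was sequenced as 24 libraries on the Ion Proton platform, per the labels' protocols. The authors deposited a single table of normalised counts, a signal that equals whole reads divided by 1 factor per library, so reads could be recovered (tolerance 0.01) and every value came out whole. The submitters' processing notes name BWA 0.7.5.1, HTSeq 0.5.3p3, DESeq 1.10.1, hg19 and GRCh37. Per the labels, 9 libraries were run again or on further lanes. Genes with a level of at least 10 in at least 3 libraries (20154 of 25082) were fitted with limma 3.58.1 (R 4.3.3) on log2(level + 1), with a trended prior, all 8 groups and 16 residual degrees of freedom. P-values were two-sided and Benjamini-Hochberg adjusted over all genes tested, with a threshold of 0.05. The fold changes are on the log2(level + 1) scale. The script was tested on simulated data. Counting error was small beside the spread between libraries: chi-square per degree of freedom between replicates was 6.68 to 284.

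The genes, lists and motif were chosen with earlier results of these data known. Every one of the 46 genes may be named, values per library are given for up to 3 genes with the largest change in a role, direction and comparison and for genes that went against most of their role, and other lists give up to 3 genes each; an item withheld for evaluation is not reported here. Alternatives were pseudocounts of 0.5 and 10, a filter at 50 or none, TMM and upper-quartile scaling, edgeR 4.0.16 and DESeq2 1.42.0 on the recovered reads, each pair of groups alone, a replicate block, a term for libraries run again, omission of the 4 libraries richest in epithelial RNA, and omission of each library in turn. Comparisons of the lines with DMSO at 4 h, and of INC424 at 4 h with naive cells, were added after the data had been seen. Promoters are RefSeq windows on GRCh38.p14 and exon overlaps come from GENCODE v29 on GRCh38; neither build is that of the reads, and no coordinate was carried between builds. The list entries GP1BB, LGALS7, PECAM1 and MS4A1 matched no row of the table.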

Additional observations from a re-analysis of the deposited data

Results flagged for a closer look

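Levels of replication genes differed between the persistent lines in direct tests of one line against another. The moderated F test over the 4 lines called 38 of the 46 replication genes, beside 47.1% of all genes tested. By pairs, 15 genes differed between the BMS911543 and CYT387 lines (31.4% of all genes tested), 25 between BMS911543 and INC424 (16.5%), 27 between BMS911543 and SAR302503 (25.5%), 27 between CYT387 and INC424 (24.4%), 29 between CYT387 and SAR302503 (26.3%), and 1 between INC424 and SAR302503 (12.7%). The share of the 46 genes called was near that over all genes for BMS911543 against CYT387, at 32.6%, and below it for INC424 against SAR302503, at 2.17%. With 1 line for each drug, the drug and the particular line cannot be told apart.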

How the results depend on the processing

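No gene lower at 48 h than with DMSO reversed. The counts for 48 h against DMSO, 4 h INC424 and naive cells, for DMSO and the INC424 line against naive cells, for the INC424 line against 48 h, for BMS911543 against INC424, and for the F test over lines stayed within 1.5 times under each alternative run. For single genes 45693 results kept their side of the threshold and direction, 1142 lost the call, 788 gained one and 5 reversed. With the groups compared alone the limma counts were 12 for INC424 4 h against DMSO, 0 for the CYT387 and 14 for the SAR302503 line against naive cells, 2 for BMS911543 against CYT387, 6 for CYT387 against INC424, 1 for CYT387 against SAR302503, 0 for INC424 against SAR302503, 32 and 12 for the BMS911543 and CYT387 lines against DMSO, and 14 for INC424 4 h against naive cells. Calls over all 20154 genes tested moved as well. In the same order they were 4422, 522, 2395, 1970, 1216, 534, 1607, 7575, 2718 and 3543. Without the 4 libraries richest in epithelial RNA they were 11 for INC424 4 h against DMSO, 16 for the BMS911543 line against naive cells, 17 for INC424 against SAR302503, 29 for the BMS911543 line against DMSO, and 22 for INC424 4 h against naive cells; TYMS in the CYT387 line against naive cells turned to 0.34, and MCM3 and MCM5 between BMS911543 and CYT387 turned to -0.29 and -0.33. DESeq2 gave 8 for INC424 4 h against DMSO and 3 for INC424 against SAR302503, where TMM gave 0 and a term for libraries run again gave 2. Calls over all 20154 genes tested in these fits were 2425, 3126, 2447 and 2566. The cause of these moves was not tested, except that fewer libraries enter the fits of groups alone. Upper-quartile scaling moved the median of all genes by 0.12 between BMS911543 and CYT387 and by -0.14 between CYT387 and INC424.

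Omitting each library in turn gave 3 to 10 genes for INC424 4 h against DMSO, 6 to 19 against naive cells, 7 to 13, 3 to 13 and 19 to 33 for the BMS911543, CYT387 and SAR302503 lines against naive cells, and, against DMSO, 14 to 26 for the BMS911543, 21 to 28 for the CYT387, 8 to 22 for the INC424 and 12 to 26 for the SAR302503 line. Between lines it gave 8 to 16 for BMS911543 and CYT387, 16 to 29 for BMS911543 and SAR302503, 22 to 31 for CYT387 and INC424, 25 to 31 for CYT387 and SAR302503, and 0 to 6 for INC424 and SAR302503. TYMS ran from -0.32 to 0.34, MCM3 from -0.29 to 0.23 and MCM5 from -0.33 to 0.24 in the comparisons named above. Deviations of same-numbered libraries correlated by -0.43 to 0.31 (12 of 84 correlations over 0.1). The labels do not say whether the numbers pair libraries, and correlations of deviations from means of 3 libraries cannot settle it. With the replicate block the count was 42 for 48 h against DMSO, 5 for 4 h against DMSO, 27 and 26 for the INC424 and SAR302503 lines against naive cells and 37 for the F test, and no count moved by over 1.5 times. No depth or count limit was reached for the 46 genes.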
